A study of Mus musculus with 4 samples.

Results

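Mitochondria form a network that is joined by fusion, cut by fission and cleared by mitophagy, and 10 genes of these processes are described here. Mfn1, Mfn2 and Opa1 act in fusion, Dnm1l, Fis1 and Mff in fission, and Pink1, Bnip3, Bnip3l and Fundc1 in mitophagy. They were chosen by symbol, with earlier results of these data known, and all 10 were found, each at 1 locus, among 24441 gene symbols. RNA was sequenced from Langerhans cells, epidermal cells that capture and present antigen, after sorting from the skin of mice aged 4 weeks. One group was wild type (WT), and the other carried CD11c-Cre and floxed Tfam (CD11cCreTfamfl/fl, here Tfam cKO), with 2 libraries in each group. TFAM packages and transcribes mitochondrial DNA. Cre driven by the CD11c promoter also acts in other CD11c-expressing cells of these mice. The labels do not say which or how many mice gave each library, nor whether WT mice carried Cre or floxed alleles. Levels are in FPKM, which divides a gene's fragments by its transcript length and by the size of the library. All 10 genes were among the 10910 symbols whose mean reached 1 FPKM, which were tested together.

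Outer membranes of mitochondria are fused by the mitofusins MFN1 and MFN2 and inner membranes by OPA1. Division begins when DRP1, the dynamin-related GTPase encoded by Dnm1l, is recruited to the surface by adaptors such as MFF and FIS1. In one route of mitophagy the kinase PINK1 gathers on depolarised mitochondria and activates the ubiquitin ligase Parkin. In another, the outer membrane receptors BNIP3, BNIP3L (also called NIX) and FUNDC1 bind LC3-family proteins of the autophagosome directly. Bnip3 is a known target of the hypoxia-inducible factor HIF-1. Loss of TFAM is known to deplete mitochondrial DNA and the respiratory chain.

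The promoter windows of Bnip3 and Fundc1 are shown because, with the deposited values, the 2 groups were separate in opposite directions for these mitophagy receptors. The choice thus used the values described below, where neither gene passed the test and the Bnip3 groups overlapped once the libraries were rescaled. Windows were taken from RefSeq on GRCm38.p6, from 250 bases before to 50 bases after the annotated start, and are given 5′ to 3′ on the gene's strand. The Bnip3 window lies at chr7:138909457-138909756 and the Fundc1 window at chrX:17571958-17572257, both on the minus strand. Capitals mark ACGTG or GCGTG on either strand, the core letters of HIF response elements.
Bnip3: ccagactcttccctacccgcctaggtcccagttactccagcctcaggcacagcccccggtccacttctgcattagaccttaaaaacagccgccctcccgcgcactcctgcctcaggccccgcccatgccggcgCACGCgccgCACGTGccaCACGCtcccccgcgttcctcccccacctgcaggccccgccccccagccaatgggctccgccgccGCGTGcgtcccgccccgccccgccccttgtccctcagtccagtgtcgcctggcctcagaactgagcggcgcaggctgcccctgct
Fundc1: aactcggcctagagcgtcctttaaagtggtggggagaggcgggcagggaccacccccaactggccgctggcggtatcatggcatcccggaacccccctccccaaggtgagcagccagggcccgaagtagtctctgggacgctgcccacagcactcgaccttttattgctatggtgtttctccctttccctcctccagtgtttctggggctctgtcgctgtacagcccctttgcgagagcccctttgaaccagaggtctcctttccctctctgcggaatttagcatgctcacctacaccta
The Bnip3 window held 5 matches, 2 of ACGTG and 3 of GCGTG. Its CACGTG reads as ACGTG on each strand and so counts as 2 overlapping matches. The Fundc1 window held 0 matches. Of all 32851 such windows, 43.8% held at least 1 match and 1.66% held at least 5. Both cores contain CG, and G and C made up 71.67% of the Bnip3 window and 59.33% of the Fundc1 window. The shares over all windows were not matched for this. Windows were found for 9 of the 10 genes, 14 in all since several genes have more than 1 start, and 8 of the 14 held a match. Besides Bnip3 these were Mfn2, Dnm1l, Fis1 and Pink1, with 1 or 2 matches in a window. The windows of Mfn1, Opa1 and Mff held 0. A match describes the letters of a window only.

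Before the comparison, the libraries were checked against their labels. With the deposited values Tfam was 3.17 FPKM in WT 1 and 1.61 in WT 2, against 1.65 and 1.53 in the Tfam cKO pair. WT 2 was thus no higher than Tfam cKO 1. As a percentage of each library's total FPKM, Tfam was 0.000858 and 0.000476 for WT against 0.000416 and 0.000407 for Tfam cKO, without overlap. Its log2 fold change was −0.35 as deposited (limma adjusted p = 0.899), and it was −0.013 without WT 1 and −0.69 without WT 2. With every library rescaled to the mean total it was −0.43 (limma adjusted p = 0.958). Values over the whole gene may also count fragments that lie outside the floxed part. The groups are therefore named as labelled. Defining Langerhans cell markers were abundant, with Cd207 (langerin) at 1374 to 2098 FPKM and Epcam at 179.6 to 199.6 FPKM over the 4 libraries. Of the 6 markers listed, 0 were separate and higher in Tfam cKO and 1 lower, against 25.4% and 9.75% of all tested genes. It was Itgax, the gene for CD11c, with 47.8 and 52.7 FPKM for WT against 43.9 and 40.97 FPKM for Tfam cKO (log2 fold change −0.24, limma adjusted p = 0.899). Fold changes were negative for 4 of the 6 and positive for 2. Transcripts of other epidermal cells were present. The 8 keratinocyte markers, all tested, summed to 13726 and 9360.3 FPKM in the WT pair and 13832 and 12272 FPKM in the Tfam cKO pair. The 5 T cell markers found summed to 280.1 and 346 FPKM for WT against 202 and 300.4 FPKM for Tfam cKO. Both sums overlapped between the groups. By gene, 4 of the 5 T cell markers were lower in Tfam cKO in both library numbers (median log2 fold change over the 5 −0.40). Of the 5, 1 was separate and higher and 1 lower, against 25.4% and 9.75% of all tested genes. Cd3g was the lower one (−0.68, unadjusted p = 0.0405 in limma). Thy1 was the higher one by a narrow step, with 65.6 and 66.3 FPKM for WT against 67.01 and 66.8 FPKM for Tfam cKO (0.021). Of the keratinocyte markers, Sfn and Dsp were separate and higher (0.46 and 0.15) and Krt1 separate and lower (−0.39). Each of the 5 fibroblast markers was under 1 FPKM in every library, and the 5 mast cell markers were listed at 0. The 5 melanocyte markers summed to 3.76 and 2.04 FPKM for WT against 5.4 and 1.51 FPKM for Tfam cKO. Immediate-early and dissociation genes, such as Fos and Hspa1a, made up 4.32 and 4.57% of total FPKM for WT. For Tfam cKO they made up 5.42 and 3.72%, the highest and the lowest share. What other cells or such a response contribute to the values below was not tested. Relative to WT 1, sequencing depth was 1.362 for WT 2, 0.884 for Tfam cKO 1 and 1.545 for Tfam cKO 2, and 213 to 1339 effective fragments lay behind each value of the 10 genes. In bulk RNA, fewer cells of a type and less RNA per cell cannot be told apart.

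Fis1, the outer membrane fission adaptor, had the highest level of the 10 genes, with 47.9 ± 2.97 FPKM (mean ± SD over the 4 libraries). Bnip3l, Pink1 and Mff followed with 22.3 ± 1.87, 19.6 ± 1.12 and 19.5 ± 0.4 FPKM, and neighbours in this order overlapped. Bnip3 with 13.4 ± 1.44, Dnm1l with 12.7 ± 0.995 and Mfn2 with 10.9 ± 1.68 FPKM came next, again with overlap between neighbours. Fundc1 and Mfn1 did not differ beyond their spread, with 7.89 ± 1.58 and 7.3 ± 1.12 FPKM, and Fundc1 was above Mfn1 in 2 of 4 libraries. Opa1 was lowest in every library, with 4.54 ± 0.492 FPKM. The ranges over the 4 libraries did not overlap at the steps from Fis1 to Bnip3l, from Mff to Bnip3 and from Mfn1 to Opa1. FPKM is scaled to transcript length, which allows levels of different genes to be compared. It sums over transcripts, so splice forms of Dnm1l, Mff and Opa1 were not resolved.

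**Figure D1:**
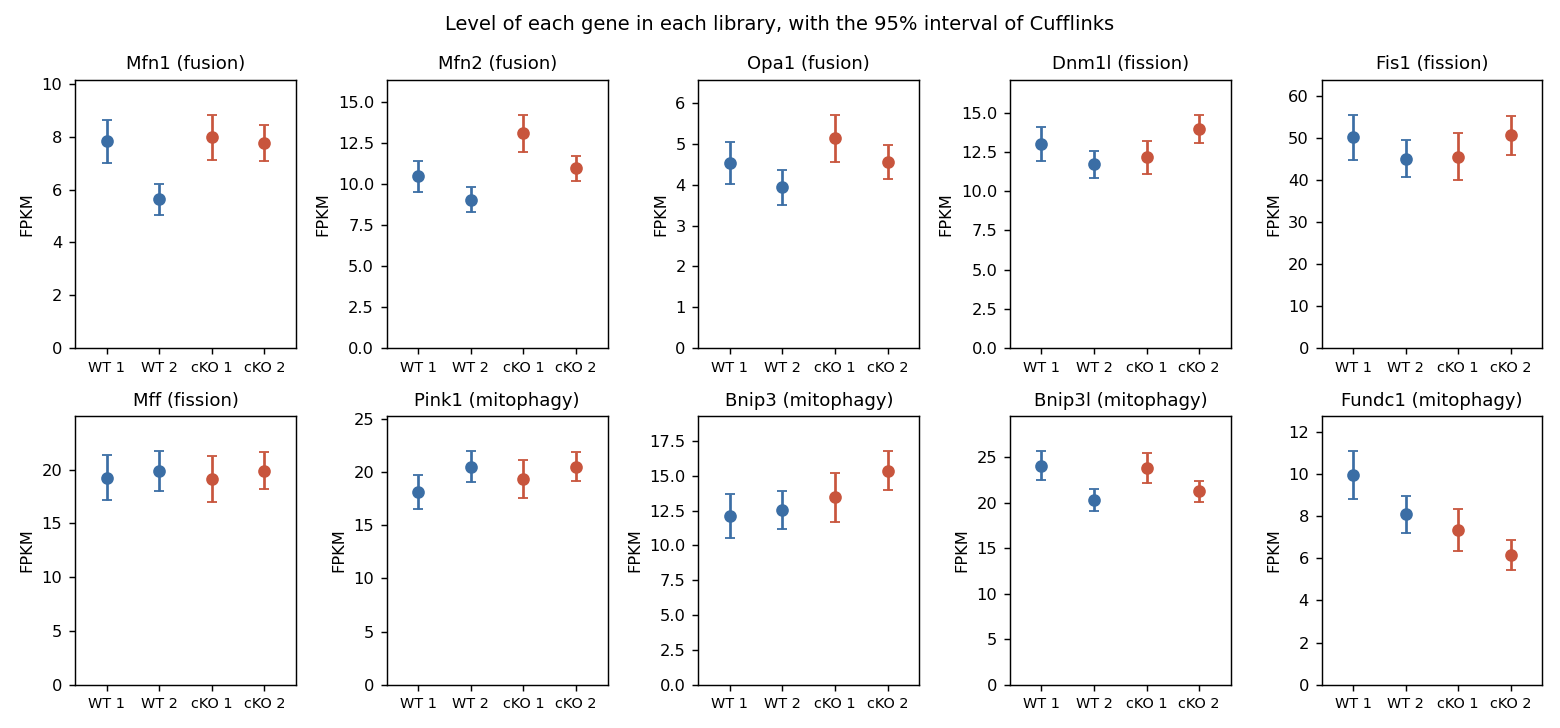
FPKM (vertical axes, each starting at 0) of the 10 genes in WT 1, WT 2, Tfam cKO 1 and Tfam cKO 2, 1 point per library, with bars for the 95% interval of Cufflinks. The points of Fundc1 are 9.94 and 8.08 for WT and 7.34 and 6.17 for Tfam cKO, while those of Mff stay between 19.1 and 19.9.

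No change in the 10 genes between Tfam cKO and WT was detected. In the limma fit over all tested genes 0 of the 10 passed an adjusted p of 0.05, and their adjusted p ranged from 0.845 to 0.999. Of all tested genes 0.0183% passed as higher and 0% as lower. An unadjusted p below 0.05 was reached by 0 of the 10 in limma with the deposited values, against 6.21% of all tested genes. Some alternatives took Fundc1 or Mfn1 below it, as given with those genes, but never past the adjusted threshold. Both Tfam cKO values exceeded both WT values for 3 of the 10, Mfn2, Opa1 and Bnip3, against 25.4% of all tested genes. For 1 of the 10, Fundc1, both were lower, against 9.75%. These shares are near the background. The median log2 fold change was 0.059 over the 10 genes and 0.073 over all tested genes. The genes also varied little, since the median range of log2(FPKM + 1) over the 4 libraries was 0.28, against 0.41 for all tested genes. The widest range was that of Fundc1, 0.61, and the narrowest that of Mff, 0.054. Standard errors of the fold changes were 0.159 to 0.185, so small shifts could not be detected.

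The deposited totals differed, from 338783 FPKM in WT 2 to 395707 FPKM in Tfam cKO 1, and small fold changes turned with the scaling. When every library was rescaled to the mean total, the median of all tested genes moved from 0.073 to −0.033 and that of the 10 genes from 0.059 to −0.057. Mfn2 stayed separate and higher and Fundc1 separate and lower, 1 gene each, against 14.3% higher and 19.8% lower among all tested genes. Quantile normalization left the same 2 genes separate, against 16.3% and 17.3%. Opa1 and Bnip3 overlapped under both scalings. Leaving out a library made separation more common among all tested genes. Without WT 1, 7 of the 10 were separate and higher and 1 lower, against 55.8% and 20.7% of all tested genes. Without WT 2 the counts were 4 and 2, against 37.3% and 32%. Without Tfam cKO 1 they were 7 and 1, against 40.7% and 19%, and without Tfam cKO 2 they were 4 and 2, against 41.9% and 23%.

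**Figure D2:**
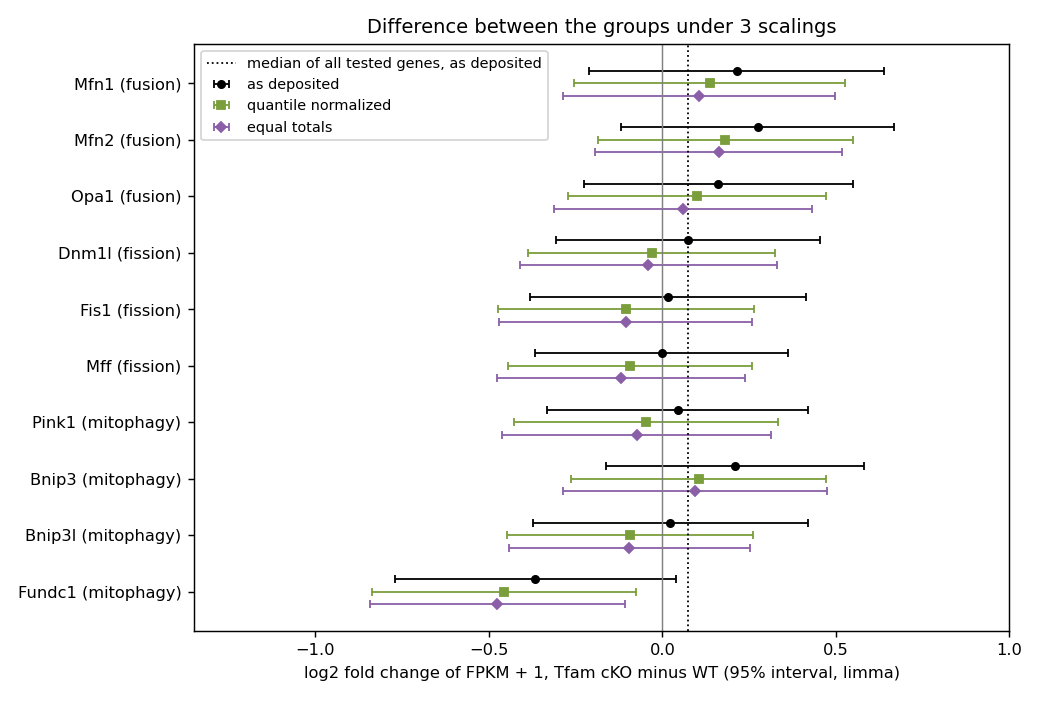
Log2 fold change of FPKM + 1, Tfam cKO minus WT (horizontal axis), for each of the 10 genes under 3 scalings, with 95% intervals from limma. Every interval spans 0 with the deposited values, where Fundc1 lies farthest from 0 at −0.37, while its interval leaves out 0 with quantile normalization (−0.84 to −0.077) and with equal totals (−0.84 to −0.11).

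The 3 fusion genes had positive fold changes, and none passed the test. Mfn2, the mitofusin that also tethers mitochondria to the endoplasmic reticulum, was 10.5 and 9.03 FPKM in the WT pair and 13.1 and 10.9 FPKM in the Tfam cKO pair. Tfam cKO 1 was the highest library and the groups did not overlap. The means were 9.74 ± 1.01 and 12.01 ± 1.5 FPKM (SD, n = 2 each), for a log2 fold change of 0.27 (95% interval −0.12 to 0.67, limma adjusted p = 0.885). It was 0.16 without Tfam cKO 1, 0.18 without WT 2 and 0.16 with equal totals. The nearest libraries, WT 1 and Tfam cKO 2, had overlapping Cufflinks intervals of 9.49 to 11.4 and 10.2 to 11.7 FPKM.

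Opa1, the inner membrane fusion GTPase that also shapes cristae, was 4.52 and 3.93 FPKM in the WT pair and 5.14 and 4.55 FPKM in the Tfam cKO pair. Only a narrow step, from WT 1 to Tfam cKO 2, kept the groups apart. Its log2 fold change was 0.16 (95% interval −0.23 to 0.55, limma adjusted p = 0.939). It was 0.080 without WT 2, 0.088 without Tfam cKO 1 and 0.060 with equal totals, and 0.24 without WT 1. Mfn1, the mitofusin with the stronger tethering activity between mitochondria, was 7.83 and 5.63 FPKM in the WT pair and 7.98 and 7.77 FPKM in the Tfam cKO pair. WT 2 stood alone below the other libraries, and the groups overlapped. The log2 fold change of Mfn1 was 0.21 (95% interval −0.21 to 0.64, limma adjusted p = 0.923), and it was 0.42 without WT 1 and 0.0070 without WT 2. Without WT 1 its unadjusted p in limma was 0.0416, with an adjusted p of 0.347. WT 2 was the lowest library for all 3 fusion genes. It also had the lowest share of its total FPKM in the 8 keratinocyte markers, 2.76%, against 3.27% to 3.71% in the others. WT 2 further had the lowest total FPKM, the lowest level of the sex-linked transcript Xist and the highest shares of Langerhans and T cell markers. The part of any of these in the fusion values was not tested.

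The fission genes had fold changes near 0, and their groups overlapped. Mff, a main receptor that recruits DRP1, was 19.2 and 19.9 FPKM in the WT pair and 19.1 and 19.9 FPKM in the Tfam cKO pair, and libraries of the same number lay closer together than those of the same group. Its log2 fold change was −0.0019 (95% interval −0.37 to 0.36, limma adjusted p = 0.999). Fis1 was 50.2 and 45.1 FPKM in the WT pair and 45.6 and 50.7 FPKM in the Tfam cKO pair, where the Tfam cKO libraries held both the highest and the second lowest value. The log2 fold change of Fis1 was 0.015 (95% interval −0.38 to 0.41, limma adjusted p = 0.996).

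Dnm1l, for the GTPase that constricts the organelle, was 13.00 and 11.7 FPKM in the WT pair and 12.2 and 13.97 FPKM in the Tfam cKO pair. Its highest value was in Tfam cKO 2 and its lowest in WT 2, with overlap (log2 fold change 0.074, 95% interval −0.31 to 0.45, limma adjusted p = 0.977). Between the libraries numbered 1, Dnm1l and Fis1 had log2 differences of −0.089 and −0.14, and between those numbered 2 of 0.24 and 0.17. The direction was thus opposite in the 2 numbers.

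Among the mitophagy genes, Pink1 and Bnip3l had fold changes near 0. Pink1 was 18.1 and 20.5 FPKM in the WT pair and 19.3 and 20.5 FPKM in the Tfam cKO pair, with WT 1 lowest and the second library of each group almost equal (log2 fold change 0.044, 95% interval −0.33 to 0.42, limma adjusted p = 0.988). Bnip3l, which clears mitochondria from maturing red cells, was 24.1 and 20.3 FPKM in the WT pair and 23.8 and 21.2 FPKM in the Tfam cKO pair. Library 1 was the higher in each group, and the groups overlapped (log2 fold change 0.023, 95% interval −0.37 to 0.42, limma adjusted p = 0.996). Its values rested on 844 to 1339 effective fragments, in each library the most of the 10 genes.

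Bnip3, the paralog of Bnip3l, was 12.1 and 12.5 FPKM in the WT pair and 13.5 and 15.3 FPKM in the Tfam cKO pair. The WT libraries were close together and Tfam cKO 2 was highest, without overlap. Its means were 12.3 ± 0.305 and 14.4 ± 1.33 FPKM (SD, n = 2 each), for a log2 fold change of 0.21 (95% interval −0.16 to 0.58, limma adjusted p = 0.912). Cufflinks intervals of WT 2 and Tfam cKO 1 overlapped, 11.2 to 13.9 and 11.7 to 15.2 FPKM. The log2 fold change was 0.12 without Tfam cKO 2, 0.10 with quantile normalization and 0.093 with equal totals. With equal totals Bnip3 was 12.1 and 13.7 in the WT pair and 12.6 and 15.1 in the Tfam cKO pair, and the groups overlapped.

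Fundc1, a mitophagy receptor first known from hypoxic cells, had the largest absolute fold change of the 10 genes. It was 9.94 and 8.08 FPKM in the WT pair and 7.34 and 6.17 FPKM in the Tfam cKO pair. Both Tfam cKO libraries were the lower ones. The means were 9.01 ± 1.31 and 6.76 ± 0.826 FPKM (SD, n = 2 each), a ratio of 0.75, with a log2 fold change of −0.37 (SE 0.176, 95% interval −0.77 to 0.038, unadjusted p = 0.0704 and adjusted p = 0.845 in limma). Among all tested genes it ranked 907 by p, and 11.5% had a larger absolute fold change.

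The Cufflinks intervals of WT 2 and Tfam cKO 1, 7.21 to 8.96 and 6.34 to 8.35 FPKM, overlapped. That of WT 1 began at 8.81 FPKM, above the upper end of Tfam cKO 1 and below that of WT 2. Both library numbers gave a like value, −0.39 between the libraries numbered 1 and −0.34 between those numbered 2. The fold change was −0.50 without WT 2, the WT library of lower Tfam, and −0.23 without WT 1. With equal totals Fundc1 was 9.95 and 8.83 in the WT pair and 6.87 and 6.08 in the Tfam cKO pair, still apart. The unadjusted p in limma was 0.0245 with quantile normalization, 0.0175 as TPM, 0.018 with equal totals, 0.0444 with the replicate block and 0.0222 without WT 2. The adjusted p of Fundc1 ranged from 0.464 to 1 over all alternatives.

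Because Fundc1 lies on chromosome X, sex-linked transcripts were set beside it. Xist was 64.6 and 5.38 FPKM in the WT pair and 39.03 and 45.6 FPKM in the Tfam cKO pair, and the Y-linked Ddx3y 0 and 28.2 FPKM for WT against 0 and 9.34 FPKM for Tfam cKO. Ddx3y was thus found in the libraries numbered 2 of both groups. Neither transcript followed the order of Fundc1 over the libraries, and their part in its values was not tested. Fundc2, its X-linked paralog, was named after its values were seen. It was 6.76 and 5.96 FPKM in the WT pair and 5.2 and 5.4 FPKM in the Tfam cKO pair (log2 fold change −0.22, limma adjusted p = 0.9).

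The tested genes with the log2 profiles nearest to that of Fundc1 over the 4 libraries, among 10909, were Ntf3, Fcgr2b and Pak1, with root-mean-square distances of 0.00768, 0.0251 and 0.0252. Ntf3, a neurotrophin gene, was 4.44 and 3.52 FPKM in the WT pair and 3.2 and 2.57 FPKM in the Tfam cKO pair. Fcgr2b, for the inhibitory Fc receptor, was 43.98 and 37.9 FPKM for WT against 33.6 and 29.5 FPKM for Tfam cKO. Pak1, a kinase gene, was 158 and 129 FPKM for WT against 123 and 100.4 FPKM for Tfam cKO. With so few libraries many genes share an order, and none of the 3 passed the test (limma adjusted p = 0.862, 0.845 and 0.869).

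Ratios between genes of 1 library do not change when that library is multiplied by a constant, though they can under quantile normalization. The Mfn2 to Mfn1 ratio was 1.34 and 1.6 in the WT pair and 1.64 and 1.41 in the Tfam cKO pair, with overlap. The summed fusion genes divided by the summed fission genes gave 0.277 and 0.243 in the WT pair and 0.341 and 0.275 in the Tfam cKO pair. Tfam cKO 1 was highest, but Tfam cKO 2 lay below WT 1. The Bnip3l to Bnip3 ratio was 1.99 and 1.62 in the WT pair and 1.77 and 1.38 in the Tfam cKO pair, again with overlap.

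The Fundc1 to Bnip3 ratio, chosen after their values were seen, was 0.822 and 0.646 in the WT pair and 0.545 and 0.402 in the Tfam cKO pair. Fundc1 and Bnip3 were each separate, in opposite directions, so their ratio had to be separate too. Its means were 0.734 ± 0.125 and 0.474 ± 0.101 (SD, n = 2 each). Of the summed FPKM of the 4 mitophagy genes, Fundc1 made up 15.5 and 13.2% in the WT pair and 11.5 and 9.77% in the Tfam cKO pair. Bnip3 made up 18.8 and 20.4% in the WT pair and 21.1 and 24.3% in the Tfam cKO pair. These ratios and shares are a description and were not tested.

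**Figure D3:**
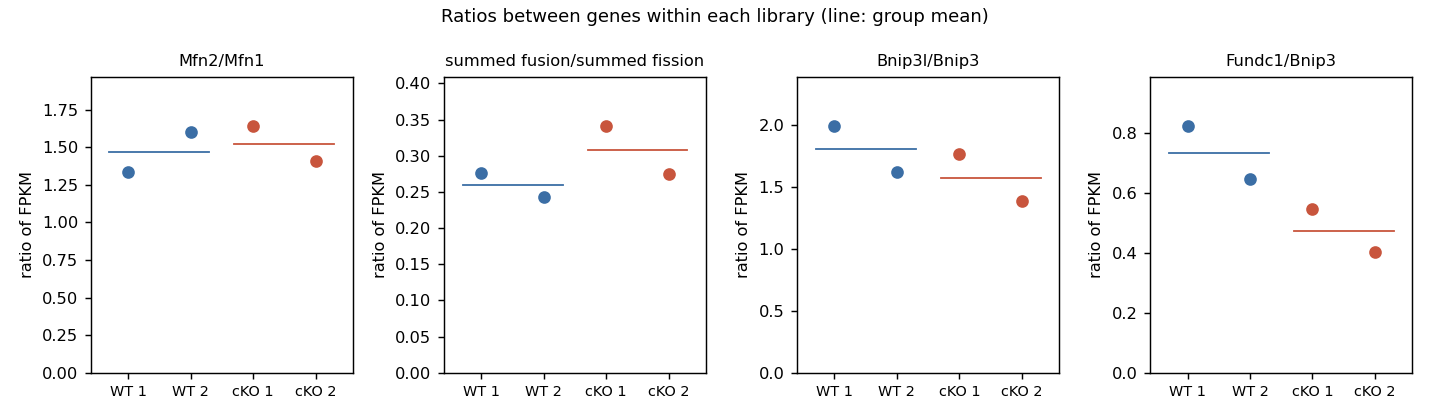
Ratios of FPKM within each library (vertical axes, starting at 0) for Mfn2 to Mfn1, summed fusion to summed fission genes, Bnip3l to Bnip3 and Fundc1 to Bnip3, with 1 point per library and a line at each group mean. The groups overlap in the first 3 ratios, and the Fundc1 to Bnip3 ratio is 0.822 and 0.646 for WT and 0.545 and 0.402 for Tfam cKO.

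No other gene of these pathways passed the test. Of 58 further genes listed for fusion, fission and mitophagy, 53 were tested and 0 passed over all genes, and 2 had an unadjusted p below 0.05 in limma, against 6.21% of all tested genes. Tfam cKO was separate and higher for 14 of the 53 and lower for 4, against 25.4% and 9.75% of all tested genes, with a median log2 fold change of 0.10. With equal totals these counts were 8 and 11, against 14.3% and 19.8% of all tested genes, and the median was −0.012, against −0.033 for all. The 5 genes that were not tested had a mean under 1 FPKM. They included Park2, the gene for Parkin, named after its values were seen, at 0.377 and 0.252 FPKM in the WT pair and 0.368 and 1.44 FPKM in the Tfam cKO pair.

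In the list of fusion and inner membrane genes, 1 of 10 was separate and higher and 0 lower, against 25.4% and 9.75% of all tested genes. It was Phb2, an inner membrane prohibitin that also serves as a mitophagy receptor, with 63.6 and 59.00 FPKM in the WT pair and 75.4 and 68.7 FPKM in the Tfam cKO pair (log2 fold change 0.23, limma adjusted p = 0.91). Chchd3, of the cristae-organising MICOS complex, was 34.04 and 23.00 FPKM for WT against 34.3 and 27.95 FPKM for Tfam cKO, with overlap.

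In the fission list, 4 of 12 were separate and higher and 0 lower, against 25.4% and 9.75% of all tested genes. The counts were 2 and 2 both with quantile normalization, against 16.3% and 17.3%, and with equal totals, against 14.3% and 19.8%. Mul1, an outer membrane ubiquitin ligase that acts on mitofusins and DRP1, had the largest fold change of the 53. It was 8.26 and 7.36 FPKM in the WT pair and 12.3 and 11.1 FPKM in the Tfam cKO pair, clear of each other in both library numbers, by 0.52 and 0.54 in log2. Its log2 fold change was 0.53 (95% interval 0.16 to 0.90, unadjusted p = 0.0108 and adjusted p = 0.625 in limma), and 0.42 with equal totals. Dnm2, a dynamin proposed to act late in fission, was 35.3 and 39.7 FPKM in the WT pair and 38.96 and 34.9 FPKM in the Tfam cKO pair. March5, another outer membrane ubiquitin ligase gene, was 21.05 and 25.4 FPKM for WT against 26.7 and 26.1 FPKM for Tfam cKO.

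On the PINK1-Parkin route, 3 of 15 were separate and higher and 2 lower, against 25.4% and 9.75% of all tested genes. With quantile normalization the counts were 3 and 6, against 16.3% and 17.3%, and with equal totals 1 and 7, against 14.3% and 19.8%. Sqstm1, for the autophagy adaptor p62, was the most abundant, with 588 and 706 FPKM in the WT pair and 969 and 703 FPKM in the Tfam cKO pair. Tfam cKO 1 alone stood high, and the log2 difference was 0.72 between the libraries numbered 1 and −0.0070 between those numbered 2. Tax1bp1, another adaptor gene, was 74.7 and 65.4 FPKM in the WT pair and 74.9 and 71.1 FPKM in the Tfam cKO pair. Fbxo7, which takes part in Parkin recruitment, was 6.67 and 6.57 FPKM for WT against 8.44 and 8.13 FPKM for Tfam cKO, the largest separate difference to the higher side (log2 fold change 0.28, limma adjusted p = 0.865). Rhot1, for the transport GTPase MIRO1 that Parkin marks for removal, was 11.8 and 8.53 FPKM for WT against 8.31 and 8.49 FPKM for Tfam cKO, where WT 1 stood high and WT 2 was close to the Tfam cKO libraries (log2 fold change −0.24, limma adjusted p = 0.914).

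The list of mitophagy receptors and the LC3 family also held Bcl2l1, Csnk2a1, Src, Ulk1, Fbxl4 and Rheb. Of its 16 genes, 6 were separate and higher and 2 lower, against 25.4% and 9.75% of all tested genes. Src was among the higher ones and Bcl2l1 among the lower. The counts were 4 and 2 both with quantile normalization, against 16.3% and 17.3%, and with equal totals, against 14.3% and 19.8%. Map1lc3a, for an LC3 protein, was 60.9 and 66.4 FPKM in the WT pair and 95.6 and 81.5 FPKM in the Tfam cKO pair. Its log2 fold change was 0.47 (95% interval 0.051 to 0.88, unadjusted p = 0.032 and adjusted p = 0.752 in limma). With equal totals it was 0.35 (unadjusted p = 0.0732 in limma). Gabarap, the most abundant of the list, was 176 and 172 FPKM for WT against 208 and 189.7 FPKM for Tfam cKO. Its relative Gabarapl1 was 131 and 138 FPKM for WT against 147 and 114 FPKM for Tfam cKO, with overlap. Bcl2l1, for the antiapoptotic BCL-XL, was 34.5 and 21.6 FPKM in the WT pair and 21.5 and 17.2 FPKM in the Tfam cKO pair. WT 1 stood high, and WT 2 and Tfam cKO 1 were nearly equal (log2 fold change −0.49, limma adjusted p = 0.846). With equal totals the fold change of Bcl2l1 was −0.61 (unadjusted p = 0.0196 in limma).

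**Figure D4:**
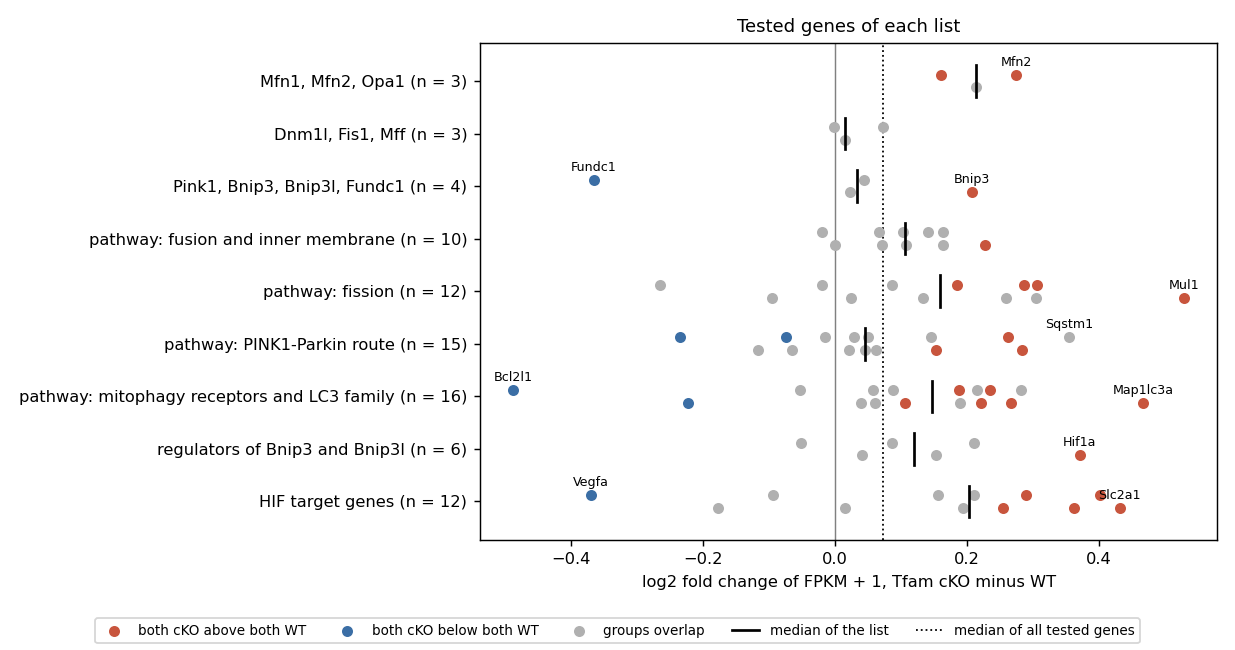
Log2 fold change of FPKM + 1, Tfam cKO minus WT (horizontal axis), of every tested gene in each list (rows), 1 point per gene, coloured by whether the groups are separate, with a bar at the list median and a dotted line at 0.073, the median of all tested genes. The points lie between −0.49 for Bcl2l1 and 0.53 for Mul1, and none passed the adjusted threshold.

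Since Bnip3 is a HIF-1 target, regulators and other targets of that pathway were set beside it. Hif1a, for the oxygen-regulated subunit, was 42.6 and 30.8 FPKM in the WT pair and 45.8 and 48.6 FPKM in the Tfam cKO pair, with WT 2 lowest (log2 fold change 0.37, limma adjusted p = 0.862). The log2 difference was 0.10 between the libraries numbered 1 and 0.64 between those numbered 2. The fold change of Hif1a was 0.14 without WT 2, 0.60 without WT 1 and 0.25 with equal totals. Of 6 regulators listed, it alone was separate and higher and 0 were lower, against 25.4% and 9.75% of all tested genes. With equal totals 1 was higher and 1 lower, against 14.3% and 19.8%. Egln1, for an oxygen-sensing prolyl hydroxylase, was 13.2 and 11.8 FPKM for WT against 14.4 and 12.3 FPKM for Tfam cKO. Of 12 HIF target genes 0 passed the test, and 3 had an unadjusted p below 0.05 in limma, against 6.21% of all tested genes. Of the 12, 5 were separate and higher and 1 lower, against 25.4% and 9.75%. With equal totals 4 were higher and 1 lower, against 14.3% and 19.8%.

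Slc2a1, for the glucose transporter GLUT1, was 63.99 and 53.6 FPKM in the WT pair and 83.5 and 75.5 FPKM in the Tfam cKO pair, without overlap (log2 fold change 0.43, limma adjusted p = 0.8). Vegfa, for the vascular growth factor, was the separate and lower one, with 32.1 and 31.4 FPKM for WT against 24.1 and 24.6 FPKM for Tfam cKO (log2 fold change −0.37, limma adjusted p = 0.804). With equal totals the fold changes were 0.31 for Slc2a1 and −0.49 for Vegfa. Ldha, for lactate dehydrogenase, was 197 and 149 FPKM for WT against 217 and 178 FPKM for Tfam cKO, with overlap.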

How the data were processed

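Total RNA of sorted cells was isolated with Trizol, and libraries were prepared with a NEBNext Ultra kit per the labels' protocols. Selection of poly(A) RNA and strand are not stated. The authors deposited 1 gene table per library holding FPKM with its 95% interval, in the format of Cufflinks, per the file headers. CASAVA, Cufflinks and mm10 appear with no version per the submitters' processing notes. Aligner and annotation: not given in the sources used here. Of 24433 loci named in GENCODE for GRCm38, 11.2% overlapped the gene of that name, 3 of the 10 genes among them, so the build is unresolved and positions from the tables are not printed.

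FPKM of loci sharing a symbol were summed. The 10910 symbols whose mean reached 1 FPKM were compared on log2(FPKM + 1) with limma 3.58.1 (R 4.3.3), fitting genotype alone over all 4 libraries with a mean trend, and p-values were adjusted by Benjamini-Hochberg over all of them at 0.05. The pseudocount understates changes of low genes. In limma each gene's variance is moderated towards that of genes of like level. Standard errors and p-values thus do not rest on the gene's own spread alone. With 2 libraries per group, p-values measure spread between these libraries, which may be technical. Relative depth came from effective fragments, (FPKM/SE) squared, over 10876 loci, and Cufflinks intervals cover counting and assignment error only. The fit was tested on simulated data.

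The genes and lists were chosen with earlier results of these data known. All 10 genes and Tfam are named. Of each list of pathway genes, HIF regulators and HIF targets, the text names the 2 genes of highest level. In each direction it also names the one of largest fold change among those with separate groups. The 3 genes nearest in profile to the most shifted of the 10 are named too. Cell type markers, immediate-early and dissociation genes, sex-linked transcripts, Fundc2 and Park2 were named outside this rule. Alternatives were other scalings, filters and pseudocounts, robust moderation, a fit without the mean trend, a block for the replicate number, the highest locus of a symbol, and each library left out. Rescaling to the mean deposited total and the Fundc1 ratios and shares were added after seeing the data. Figures were drawn with matplotlib 3.10.9 (Python 3.11.15).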

Additional observations from a re-analysis of the deposited data

How the results depend on the processing

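None of the 10 genes passed the adjusted threshold under any of the 15 alternatives, with adjusted p from 0.347 to 1. Mfn1, Mfn2, Opa1, Bnip3 and Fundc1 kept their direction wherever they were tested (Opa1 was not, with the filter at 5 FPKM), and Dnm1l, Fis1, Mff, Pink1 and Bnip3l turned in 20 values in all. With quantile normalization, TPM and equal totals the log2 fold changes were −0.031, −0.043 and −0.041 for Dnm1l, −0.10, −0.11 and −0.11 for Fis1, −0.048, −0.076 and −0.074 for Pink1, −0.093, −0.098 and −0.095 for Bnip3l, −0.054, −0.061 and −0.060 for Tax1bp1 and −0.013, −0.030 and −0.029 for Egln1. With each library left out they were −0.019 to 0.17 for Dnm1l, −0.061 to 0.092 for Fis1, −0.029 to 0.025 for Mff, −0.039 to 0.13 for Pink1, −0.095 to 0.14 for Bnip3l, −0.13 to 0.41 for Chchd3, −0.10 to 0.064 for Dnm2, −0.032 to 0.16 for Tax1bp1, −0.24 to 0.13 for Gabarapl1, −0.022 to 0.19 for Egln1 and −0.0071 to 0.40 for Ldha. The median of the 10 genes was −0.039, −0.059 and −0.057 in the same 3 scalings, each with 1 gene separate and higher, and 0.013 to 0.14 with each library left out, highest without WT 1. Then 4 to 7 were separate and higher and 1 to 2 lower, against 37.3% to 55.8% and 19% to 32% of all tested genes.

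Over all genes, the 2 called higher became 0 without a filter, 1 with the filter at 5 FPKM, 1 with a pseudocount of 5 and 145 with the replicate block. The 0 called lower in limma, where 677 genes in either direction had an unadjusted p below 0.05, became 1 without the mean trend, 2 with robust moderation and 39 with the replicate block. With each library left out, 12 to 63 were called higher and 3 to 40 lower, and the lone library was taken to vary as the other group does. The cause of these shifts was not tested. The labels do not say what the replicate number stands for. Ddx3y, Uty, Kdm5d and Eif2s3y, all Y-linked, were at 0 in the libraries numbered 1 and above 0 in those numbered 2, so the block also separates libraries by these transcripts. Their part in the block's calls was not tested. With the replicate block 0 of the 10 and 0 of the 53 other pathway genes passed, and same-numbered libraries deviated together with a correlation of 0.255 across genes, which are not independent.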
